A study of Mus musculus with 15 samples.

Results

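The genes described here are the interferon-inducible families of a T cell data set: the guanylate-binding proteins, the immunity-related GTPases, the Ifit, Ifitm, Mx, Oas, Schlafen and Trim30 families, the p200 (HIN-200) family, and 4 single genes (Ifi30, Ifi44, Rsad2 and Usp18). Members were chosen by symbol, with earlier results of these data known. A gene entered if its symbol began with one of the families' stems, and 33 of the 4567 genes in the deposited tables did. RNA was sequenced from splenic T cells sorted by FACS in a mouse model of acute graft-versus-host disease (aGvHD), in which C57Bl6 T cells and bone marrow were given to BALB/c recipients irradiated with 8 Gy, with mice aged 6 to 8 weeks. Cells were parted by Flica, which fluoresces where it has bound active caspase-1. There were 5 groups of 3 libraries. Cells taken from recipients on day 7 after transfer gave 3 of them: Flica-positive CD8 cells, Flica-negative CD8 cells and Flica-negative CD4 cells. Flica-negative cells of untreated C57Bl6 mice gave the controls of each lineage (day 0). No group of Flica-positive CD4 cells was sequenced, the controls had been neither transferred nor exposed to an irradiated host, and cells of several mice with aGvHD were sorted together, so that a day 7 library stands for a pool. A control library may stand for a single mouse.

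Interferons bind receptors that signal through JAK kinases and STAT factors, and the STAT complexes bind short elements upstream of target genes. One such element, the interferon-stimulated response element (ISRE), answers mainly to type I interferon, and another, the gamma-activated site (GAS), answers to interferon-gamma. The products of the target families restrict viruses and intracellular bacteria, and several of them sense foreign RNA or DNA. Activated CD8 T cells are themselves a main source of interferon-gamma.

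Genes are listed only if they passed 0.05 for the adjusted p and 2 for the size of the log2 fold change in at least 1 of 4 comparisons. In the GENCODE M21 annotation of the mouse genome GRCm38, 80 protein-coding genes match the rule, and 30 of them are listed; the other 3 members carry another gene type there (Gbp11, Mx2 and Ifi30). The remaining 50, such as Isg15, Ifit1, Ifit3, Gbp2, Irgm1 and Zbp1, have no row and were not analysed here. Of the 33 members, 16 stood in 1 table, 6 in 2, 7 in 3 and 4 in all 4 (Ifitm3, Ifitm6, Slfn4 and Ifi204). These 4 comparisons are therefore not independent of how genes were listed, whereas CD4 against CD8 cells, on day 7 and on day 0, were not among them. A gene listed through 1 group alone is still favoured in a comparison that uses that group. This holds for Gbp11, Gbp3 and Mx1 (listed only for CD4 Flica-negative cells against their controls), among others. The same holds for Tgtp1 and Tgtp2 (listed only for CD8 Flica-negative cells against theirs). It also holds for Gbp9, Ifi214 and Ifi30 (listed only for CD8 Flica-positive cells against controls) and for Trim30c (listed only for both CD8 fractions against controls). Iigp1 is a further case (listed only for CD8 Flica-positive cells against CD8 controls and against CD8 Flica-negative cells).

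Values are normalized counts, that is, counts divided by the authors' size factors, and groups were compared by the quasi-likelihood test of edgeR. P-values were adjusted by Benjamini-Hochberg over all listed genes, and a gene was called at an adjusted p below 0.05. The listed genes took between 2143579 and 3184674 counts in the control and Flica-negative libraries and between 7310375 and 11046043 in the Flica-positive ones, which is not their depth. Mitochondrially encoded genes took 42.8% to 51.7% of these counts in the Flica-positive libraries and 15.1% to 28.8% in the others. Of 12 T cell markers only Cd8a was listed, at 9348 to 21640 in the CD8 groups. It was at 42.55 to 116.5 in CD4 controls and 4.41 to 10.4 in CD4 Flica-negative cells. Markers of several other cell types moved with the groups. All 14 genes of a neutrophil list were higher in the Flica-positive CD8 fraction than in the Flica-negative one, with sums of 198700 to 380100 against 11750 to 18080, and of 48.4 to 115 in the controls, where Ly6g and Elane were at 0. Of 14 macrophage or monocyte markers 11 were listed and 9 were higher, with sums of 21630 to 40630 against 5808 to 7601, and all 6 listed of 9 erythroid markers were higher, with sums of 1739 to 111200 against 295 to 3616. The macrophage or monocyte sum of the Flica-negative fraction was mostly Ccr2, which was not called (mean 5076, against 3470 in the Flica-positive fraction). The 8 B cell markers summed to 5758 to 8821 in the controls and to at most 638 on day 7. Other lists were mixed between the CD8 fractions. In the Flica-positive one, 2 of 4 listed dendritic cell markers were called higher and 1 lower. Of 3 listed natural killer markers 0 were called higher and 1 lower, and of 4 listed platelet markers 2 higher and 0 lower. The part of these cells in the results below was not tested. In bulk libraries, fewer cells of a type and less RNA per cell cannot be told apart.

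In CD8 cells of day 7, 19 members were higher and 2 lower in the Flica-positive fraction than in the Flica-negative one. Of all listed genes 21.1% were called higher, 2.72% lower and 23.8% in either direction. For 26 members the 3 libraries of one fraction did not overlap those of the other, as for 44.2% of listed genes. The median log2 fold change was 1.39 over the members and 0.412 over all listed genes. With TMM scaling, which lowered the median of all listed genes by 0.553, 14 members were higher and 4 lower. TMM takes most genes as unchanged, but here it was computed over genes listed for a change. A call lost or a sign turned with it therefore does not show which scaling is right, here or below. Of the 12 members listed in the authors' table of this comparison, all 12 were called, where 74.1% of all genes listed there were. Of the 21 that had entered through other tables, 7 were higher and 2 lower, where 9.93% of such genes were called. All 5 Oas members and all 3 immunity-related GTPases were called higher, while none of the 4 guanylate-binding proteins and neither Mx gene was called.

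Against CD8 control cells, 20 members were higher and 10 lower in Flica-positive cells, where 46.8% and 23.9% of listed genes were called (70.8% in either direction). In Flica-negative cells 12 were higher and 14 lower, where 37.6% and 29.1% were called (66.7% in either direction). The libraries of 31 members did not overlap in each of these comparisons, as for 79.4% and 73.4% of listed genes. The median listed gene lay at a log2 fold change of 2.04 in the former comparison and 0.686 in the latter, and the median member at 1.64 and -0.57. With TMM scaling, the medians of all listed genes moved by -1.65 and -0.435 on the log2 scale, and the split became 11 higher and 11 lower in Flica-positive cells. In CD4 Flica-negative cells, 13 members were higher and 11 lower than in CD4 control cells, where 31.6% and 26.8% of listed genes were called (58.4% in either direction). Libraries of 27 members did not overlap there, as for 67.1% of listed genes.

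**Figure D1:**
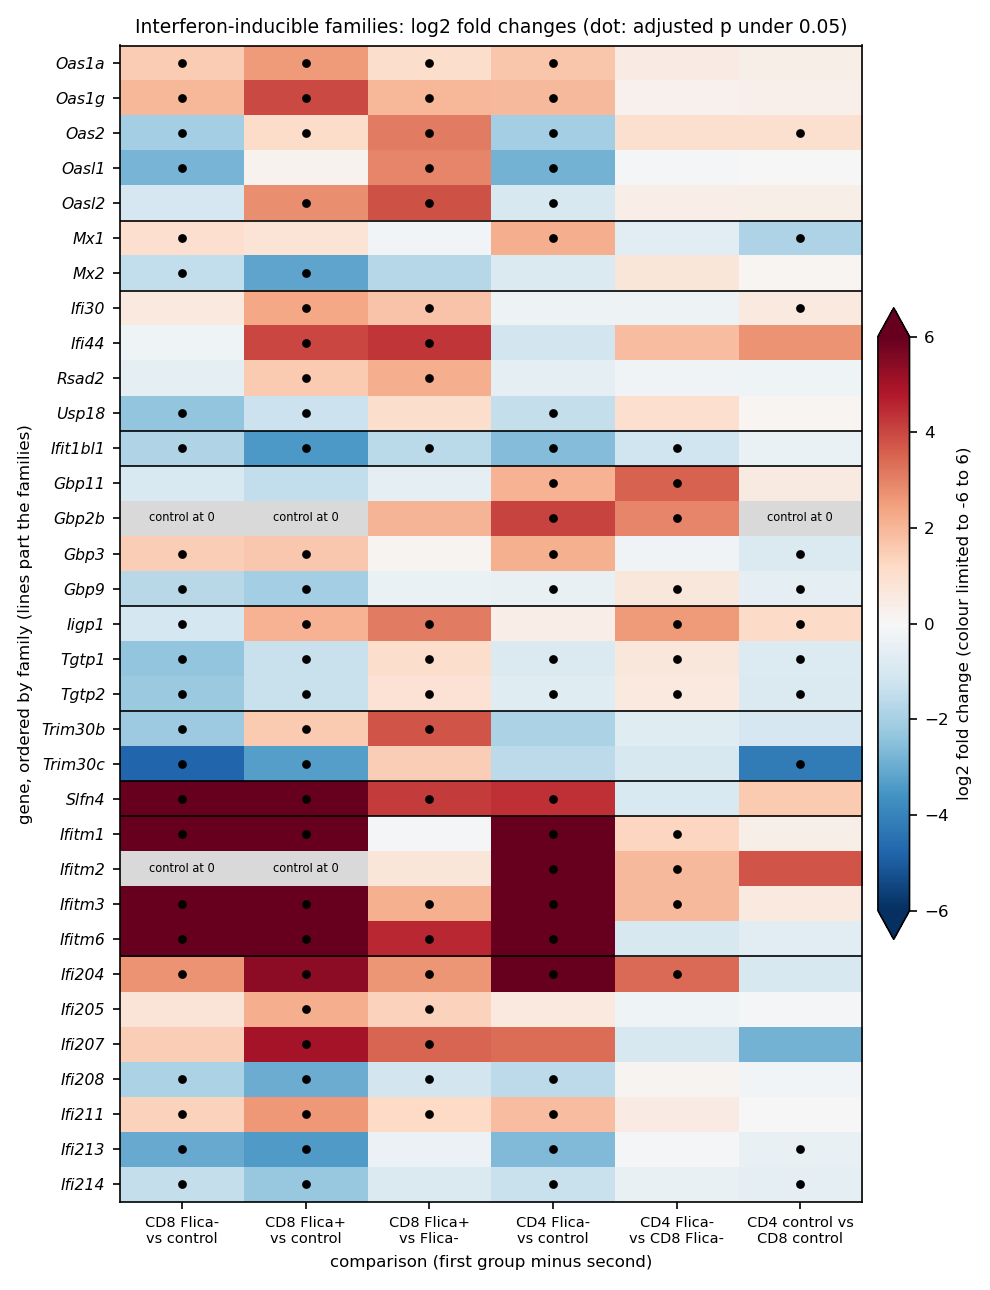
Log2 fold changes of the 33 genes (rows, by family) in 6 comparisons (columns, first group minus second), with colour limited to -6 to 6 and a dot where the edgeR adjusted p was under 0.05. Grey cells had no count in CD8 control cells. Ifitm1, Ifitm3, Ifitm6 and Slfn4 are red in all 3 comparisons of day 7 cells with controls, and 6 genes (Iigp1, Oas2, Oasl1, Tgtp1, Tgtp2 and Trim30b) turn from blue in CD8 Flica-negative cells against controls to red in Flica-positive against Flica-negative cells, with TMM scaling taking Tgtp1 and Tgtp2 out of the latter calls.

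The Oas family makes oligoadenylates on binding double-stranded RNA, which switch on RNase L, and against CD8 controls 2 of its 5 listed members were higher in Flica-negative cells (Oas1a and Oas1g), 2 were lower (Oas2 and Oasl1) and Oasl2 was not called. Oas2 stood at 369, 341 and 288 in the CD8 control libraries, at 69.2, 104 and 69.9 in the CD8 Flica-negative ones and at 483, 653 and 984 in CD8 Flica-positive libraries. The 3 CD8 groups did not overlap: Flica-negative cells lay lowest and Flica-positive cells highest. The fall from control to Flica-negative cells had a log2 fold change of -2.04 (SE 0.33, edgeR adjusted p = 0.00034), and Flica-positive exceeded Flica-negative cells by a log2 fold change of 3.12 (SE 0.35, edgeR adjusted p = 2.8e-05). Flica-positive cells also exceeded controls (log2 fold change 1.09, SE 0.33, edgeR adjusted p = 0.0178), but that difference was -0.64 with TMM scaling and lost its call without Flica-positive replicate 3 (adjusted p = 0.0528) or control replicate 3 (adjusted p = 0.0515).

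Oasl1, a synthetase-like protein, and Oasl2 followed Oas2 in the Flica-positive cells. Oasl1 counted 176, 213 and 102 in CD8 controls, 43.7, 2.80 and 25.9 in Flica-negative and 158, 131 and 271 in Flica-positive cells. Its Flica-positive and control libraries overlapped, and its Flica-negative libraries lay below both. It was lower in Flica-negative than in control cells (log2 fold change -2.77, SE 0.74, edgeR adjusted p = 0.00726) and rose in the Flica-positive fraction (log2 fold change 2.95, SE 0.76, edgeR adjusted p = 0.0134 between the fractions). Flica-positive and control cells were not separated (log2 fold change 0.19, SE 0.50, edgeR adjusted p = 0.73), although TMM scaling put Flica-positive cells lower there, by 1.54 on the log2 scale (adjusted p = 0.0196). Oasl2 reached 836, 1649 and 1464 in the Flica-positive libraries, against 81.0, 144 and 55.2 in Flica-negative and 216, 197 and 151 in control libraries. Each Flica-positive library lay above every library of the other CD8 groups (log2 fold change 3.82, SE 0.39, edgeR adjusted p = 1.22e-05 against Flica-negative cells). Its lower level in Flica-negative than in control cells missed the threshold (log2 fold change -1.01, SE 0.43, edgeR adjusted p = 0.0559), and with TMM scaling it was called (adjusted p = 0.0233).

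Oas1a and Oas1g, which lie side by side on chromosome 5, were higher on day 7 in both sorted fractions than in controls, although with TMM scaling Oas1a was not called in Flica-positive cells (adjusted p = 0.0755). Oas1g rose from 28.2, 2.69 and 49.0 in CD8 controls to 115, 129 and 72.5 in Flica-negative and 326, 620.4 and 300.2 in Flica-positive cells, with no overlap between the groups (log2 fold change 1.98, SE 0.77, edgeR adjusted p = 0.0406 and log2 fold change 1.98, SE 0.40, edgeR adjusted p = 0.00267). The former call was lost with TMM scaling (adjusted p = 0.0803) and without Flica-negative replicate 1 or 2 or control replicate 1 (adjusted p between 0.0829 and 0.101). Oas1a counted 134, 92.2 and 125, then 316, 451 and 229.6, then 556, 910.0 and 573 in the same order. Its difference between the sorted fractions (log2 fold change 1.03, SE 0.32, edgeR adjusted p = 0.0333) lost its call with TMM scaling (adjusted p = 0.335) and without Flica-negative replicate 1 or 3 or Flica-positive replicate 2 (adjusted p between 0.0819 and 0.164). Of the 150-base windows of Oas1a transcripts, 32.4% also occur in another gene, as do 24.1% of those of Oas1g, so reads may have been split between the pair.

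**Figure D2:**
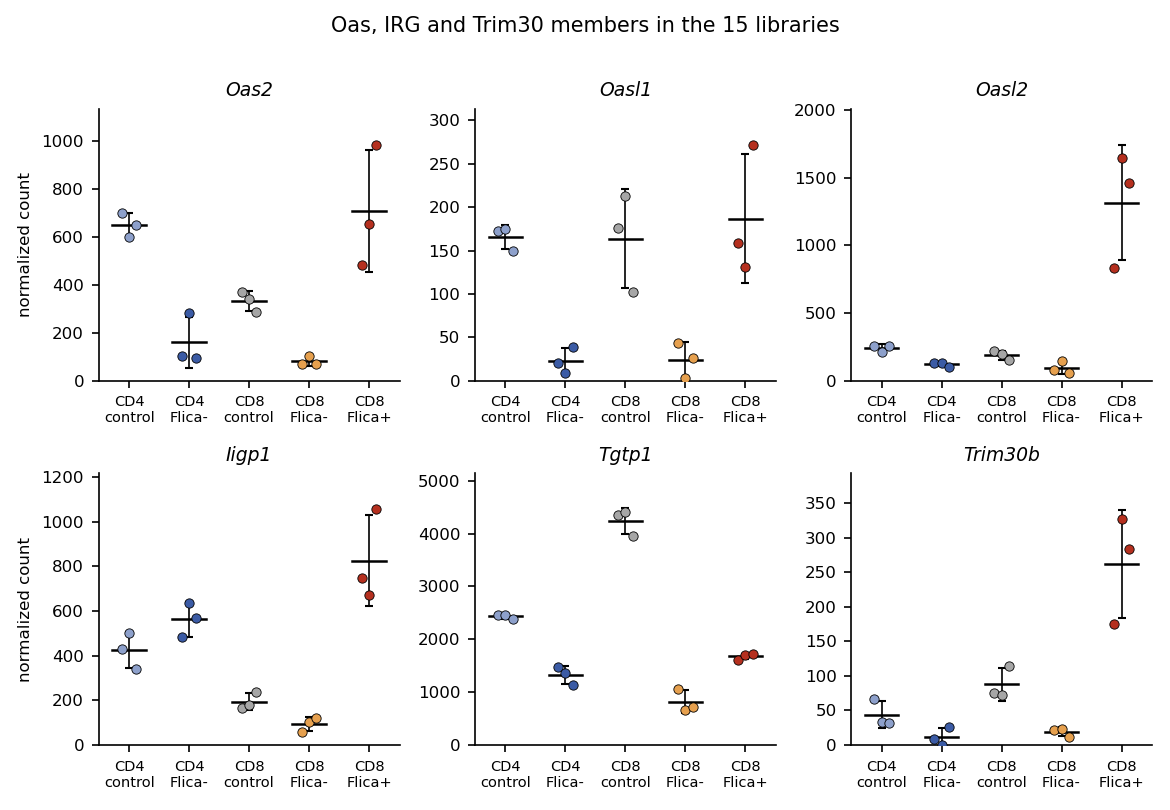
Normalized counts of 3 Oas members, 2 immunity-related GTPases and Trim30b in each library (points) of the 5 groups, with the mean and SD of 3 libraries (bars). In CD8 cells the Flica-negative libraries are lowest in each panel with these size factors, and Tgtp1 is the 1 gene whose Flica-positive libraries all lie below the control libraries.

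The immunity-related GTPases are induced mainly by interferon-gamma and are loaded onto the vacuoles of intracellular parasites and bacteria, and 3 were listed. Iigp1 was at 167, 177 and 239 in CD8 controls, at 57.5, 104 and 121 in Flica-negative cells and at 750.3, 669.8 and 1057 in Flica-positive cells. Every Flica-positive library exceeded every other CD8 library, and Flica-negative cells lay below controls. The rise between the sorted fractions had a log2 fold change of 3.13 (SE 0.35, edgeR adjusted p = 2.36e-05). The lower level of Flica-negative cells against controls (log2 fold change -1.04, SE 0.39, edgeR adjusted p = 0.0372) was lost when any of 5 libraries was left out (adjusted p between 0.0503 and 0.0987), all but Flica-negative replicate 3, and the excess of Flica-positive cells over controls (log2 fold change 2.09, SE 0.32, edgeR adjusted p = 0.000505) was lost with TMM scaling (adjusted p = 0.27).

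Tgtp1 and Tgtp2 are neighbours on chromosome 11 and share 64.9% and 68.4% of their 150-base windows with another gene, so they were read as a pair. Tgtp2 stood at 5528, 5834 and 5109 in CD8 controls, 1579.9, 962 and 1032 in Flica-negative and 2131, 2183 and 2249 in Flica-positive cells, and Tgtp1 at 4345, 4408 and 3949, 1067, 661 and 726 and 1616, 1699 and 1717. In both genes the control libraries were highest, and Flica-positive libraries lay between them and the Flica-negative ones. Against controls, Tgtp1 was lower in Flica-negative (log2 fold change -2.37, SE 0.21, edgeR adjusted p = 4.45e-06) and in Flica-positive cells (log2 fold change -1.34, SE 0.18, edgeR adjusted p = 0.000282). Its excess in Flica-positive over Flica-negative cells (log2 fold change 1.04, SE 0.24, edgeR adjusted p = 0.00624) lost its call with TMM scaling (adjusted p = 0.282) and without Flica-negative replicate 2 (adjusted p = 0.0535). That of Tgtp2 (log2 fold change 0.88, SE 0.23, edgeR adjusted p = 0.0166) was lost with TMM scaling (adjusted p = 0.527) and without Flica-negative replicate 2 or 3 or Flica-positive replicate 2 (adjusted p between 0.0528 and 0.105).

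Guanylate-binding proteins are large GTPases that coat pathogen vacuoles and aid inflammasome activation, and the 4 listed members moved apart on day 7. Gbp9 was at 4543, 4919.9 and 4951 in CD8 controls, 1555, 1434 and 1524 in Flica-negative and 985, 1274 and 1207 in Flica-positive cells, so that both day 7 fractions lay below the controls (log2 fold change -1.68, SE 0.15, edgeR adjusted p = 3.93e-06 in Flica-negative cells). Gbp3 went the other way, from 409, 424 and 426 in controls to 1190.0, 1214 and 1109 in Flica-negative cells (log2 fold change 1.48, SE 0.20, edgeR adjusted p = 9.41e-05) and 1246, 1259.6 and 1404 in Flica-positive cells. Its excess in Flica-positive cells over controls (log2 fold change 1.64, SE 0.22, edgeR adjusted p = 0.000228) became -0.03 with TMM scaling. Gbp2b had no count in any CD8 control library and 50.1, 7.46 and 13.8 in Flica-negative and 172, 80.0 and 35.9 in Flica-positive libraries. Set against 3 counts per control library, these means were at least 8.69-fold and at least 35.1-fold higher. Between the sorted fractions none of the 4 was called, although with TMM scaling Gbp9 was called lower in Flica-positive cells (log2 fold change -0.98, adjusted p = 0.0056). Gbp2b had a log2 fold change of 2.02 (SE 0.85, edgeR adjusted p = 0.107). Its adjusted p was 0.0344 without Flica-negative replicate 1 and 0.0443 without Flica-positive replicate 3.

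The Ifitm genes, which encode small membrane proteins that hinder the entry of enveloped viruses, lie together on chromosome 7 between positions 140954837 and 141017924 (GENCODE M21, GRCm38). All 4 listed members rose from near 0 in both control groups. Ifitm1 counted 2.64, 7.16 and 0 in CD8 controls, 2783, 3832 and 2520.0 in Flica-negative and 2501, 3497 and 2327 in Flica-positive cells, and the day 7 fractions overlapped (log2 fold change -0.13, SE 0.24, edgeR adjusted p = 0.71). Ifitm2 had no count in CD8 controls, 292, 388 and 352 in Flica-negative and 417, 805 and 478 in Flica-positive cells, which is at least 126-fold and at least 207-fold more than 3 counts per control library. Of its 150-base windows 23.5% occur in another gene, Gm45717.

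Ifitm3 and Ifitm6 differed between the sorted fractions. Ifitm3 stood at 7.05, 21.5 and 0 in CD8 controls, 636, 822 and 810.4 in Flica-negative and 2355, 3507 and 3946 in Flica-positive cells, a rise with a log2 fold change of 2.11 (SE 0.25, edgeR adjusted p = 3.85e-05) between the fractions. Ifitm6 stood at 1.76, 5.37 and 0, 185, 283 and 278 and 4155, 6503 and 6776, and exceeded Flica-negative cells by a log2 fold change of 4.54 (SE 0.29, edgeR adjusted p = 6.28e-07). Slfn4, a Schlafen gene known from monocytes and macrophages, had the same order of groups, with 5.29, 0 and 0 in controls, 152, 229.5 and 269 in Flica-negative and 2851, 3187 and 5734 in Flica-positive cells (log2 fold change 4.17, SE 0.34, edgeR adjusted p = 2.08e-06). For Ifitm6 and Slfn4 the steps between groups ran beside those of the neutrophil marker sum, whose members S100a8 and S100a9 had log2 fold changes of 4.20 and 4.28 between the fractions (edgeR adjusted p = 6.28e-07 for each). The part of neutrophil RNA in these levels was not tested.

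**Figure D3:**
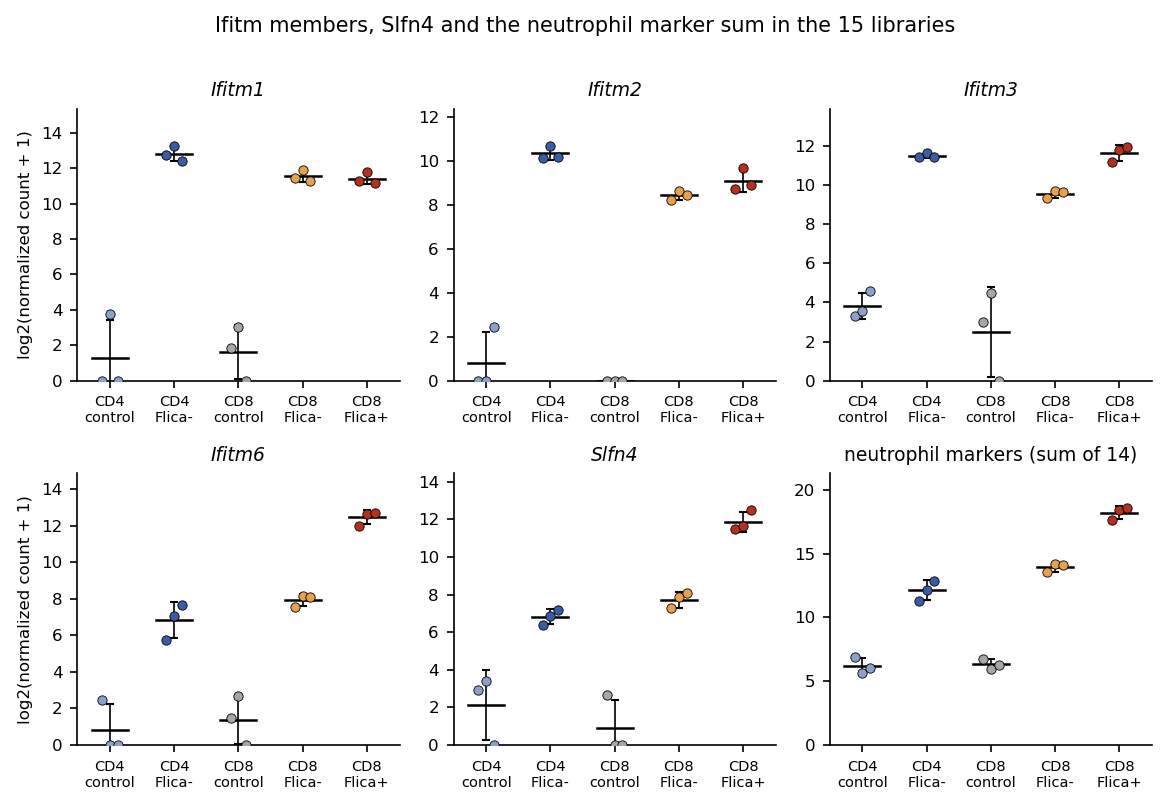
Log2 of the normalized count plus 1 for the 4 Ifitm genes, Slfn4 and the sum of 14 neutrophil markers in each library (points), with the mean and SD of the log2 values (bars). Ifitm1 and Ifitm2 are highest in CD4 Flica-negative libraries, whereas Ifitm6, Slfn4 and the marker sum are highest in the CD8 Flica-positive libraries.

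The p200 proteins carry DNA-binding HIN domains, and Ifi204, the best known of them, senses DNA in the cytosol and nucleus. The 7 listed genes occupy one stretch of chromosome 1, between positions 173519717 and 174031810 (GENCODE M21, GRCm38), and split into 2 sets that moved in opposite directions. Ifi208, Ifi213 and Ifi214 were lower in both day 7 fractions of CD8 cells than in controls, and Ifi204, Ifi205, Ifi207 and Ifi211 were higher in Flica-positive cells. The stretches around the ISRE letters upstream of 6 of the genes are shown because they group in the same way, which was noticed after the values were seen. They are RefSeq sequence of build GRCm38.p6, read 5′ to 3′ in the sense of each gene, and capitals mark GAAANNGAAA, the letters searched on both strands in the 250 bases before and 50 after each start.
Ifi208, chr1:173673592-173673631 (plus strand): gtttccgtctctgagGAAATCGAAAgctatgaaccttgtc
Ifi213, chr1:173599321-173599360 (minus strand): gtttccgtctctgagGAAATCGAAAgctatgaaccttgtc
Ifi214, chr1:173536012-173536051 (minus strand): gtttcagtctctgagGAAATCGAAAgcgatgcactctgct
Ifi205, chr1:174031865-174031904 (minus strand): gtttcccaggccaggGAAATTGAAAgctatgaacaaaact
Ifi207, chr1:173741826-173741865 (minus strand): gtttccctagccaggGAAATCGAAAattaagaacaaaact
Ifi211, chr1:173913059-173913098 (minus strand): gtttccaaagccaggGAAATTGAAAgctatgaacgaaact

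Aligned on the motif with no gaps, the 40 bases of Ifi208 and Ifi213 are identical, and Ifi214 shares 33 of 40 with each. Ifi205, Ifi207 and Ifi211 share 33 to 37 of 40 among themselves and 24 to 26 with the genes that were lower. The motif starts between 37 and 134 bases before the RefSeq start. No promoter was matched for Ifi204.

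Ifi208 stood at 3741, 4186 and 4184 in CD8 controls, 1485, 1066 and 728 in Flica-negative and 664, 505 and 381 in Flica-positive cells, falling at each step with no overlap (log2 fold change -1.89, SE 0.24, edgeR adjusted p = 6.3e-05 and log2 fold change -1.08, SE 0.30, edgeR adjusted p = 0.0199). The second step lost its call without Flica-negative replicate 1 or 2 or Flica-positive replicate 2 or 3 (adjusted p between 0.0649 and 0.0928). Ifi213 fell from 4188, 4683 and 5085 in controls to 776, 581 and 367 in Flica-negative cells (log2 fold change -3.02, SE 0.26, edgeR adjusted p = 3.94e-06), and its Flica-positive libraries, at 464, 301 and 563, overlapped these. Ifi214 fell from 1739, 1733 and 1669 to 947, 529 and 436 (log2 fold change -1.43, SE 0.28, edgeR adjusted p = 0.00127). In Flica-positive cells it counted 424, 558 and 76.5, where replicate 3 lay far below the other two.

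Among the genes that were higher, Ifi207 was near 0 in controls, at 5.29, 0 and 19.2, and counted 8.52, 21.5 and 38.0 in Flica-negative and 155, 234 and 396 in Flica-positive cells (log2 fold change 3.51, SE 0.60, edgeR adjusted p = 0.000827 between the fractions). Ifi205 was at 122, 86.9 and 142 in controls, 205, 208 and 195 in Flica-negative and 578, 380.2 and 633 in Flica-positive cells, and differed between the fractions by a log2 fold change of 1.39 (SE 0.29, edgeR adjusted p = 0.0039). Ifi211 was at 121, 86.9 and 142, 266, 339.6 and 300.3 and 577, 748 and 784 (log2 fold change 1.22, SE 0.26, edgeR adjusted p = 0.004). With TMM scaling the calls of Ifi205 and Ifi211 between the fractions were lost (adjusted p = 0.0659 and 0.0798). These 2 genes are not separate measurements everywhere. Of the 150-base windows of Ifi211, 46.4% occur in another gene, and in 3 of the 6 control libraries its count equalled that of Ifi205 exactly, with a difference of at most 10 counts in the other 3.

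**Figure D4:**
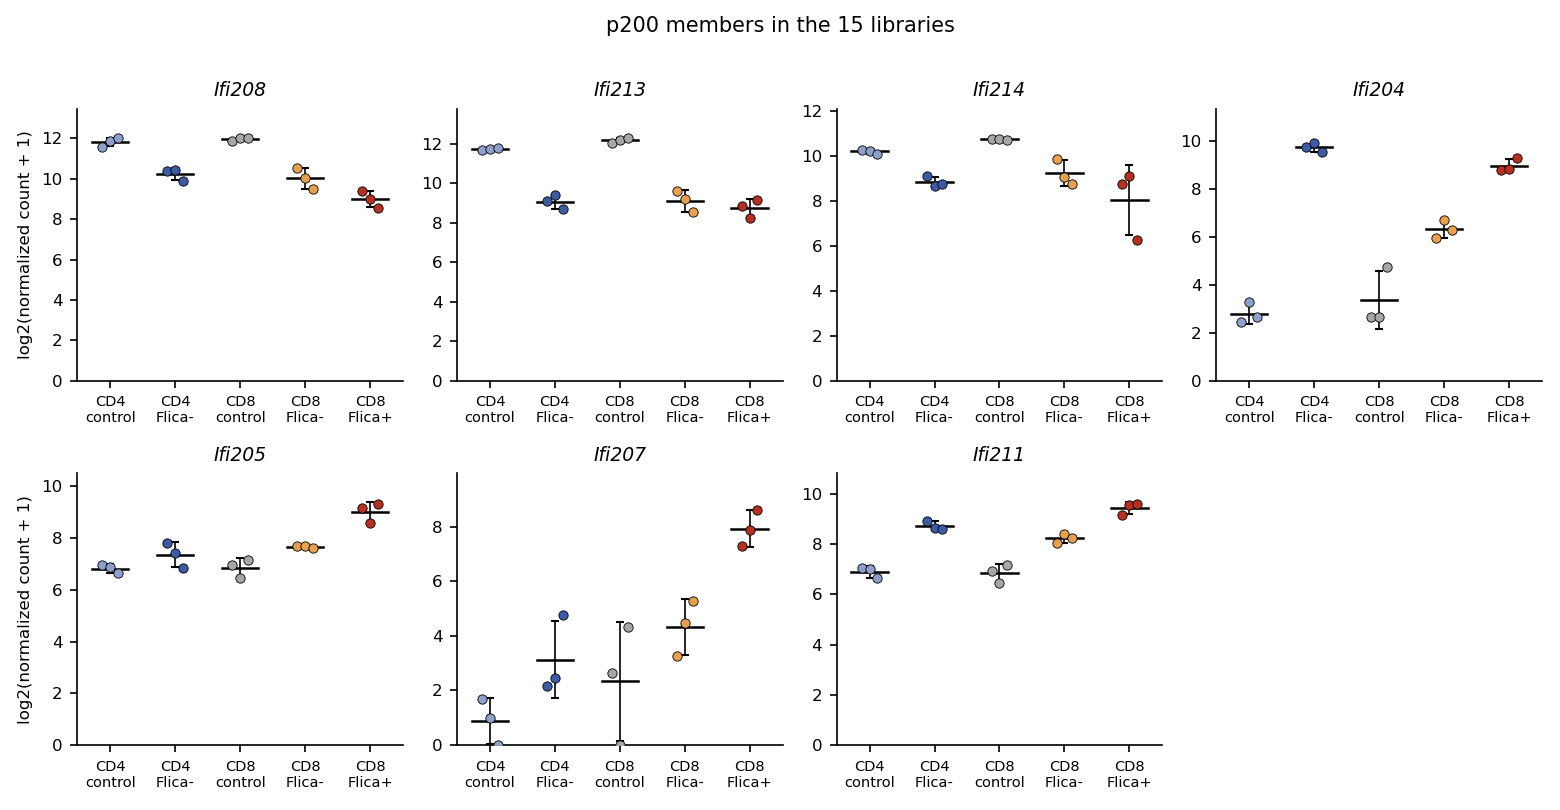
Log2 of the normalized count plus 1 for the 7 listed p200 genes in each library (points), with the mean and SD of the log2 values (bars). Ifi208, Ifi213 and Ifi214 are highest in the control libraries, and Ifi204, Ifi205, Ifi207 and Ifi211 are lowest there, with some overlap of day 7 and control libraries for Ifi205 and Ifi207.

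The same letters were searched in the other promoters. RefSeq windows were found for 25 of the 33 members, and none was matched for Gbp9, Gbp11, Iigp1, Mx1, Mx2, Oas2, Ifi204 and Usp18. GAAANNGAAA occurred in the windows of 16 of the 25, against 3.99% of 27025 genes with a window, and the GAS letters TTCNNNGAA in 6 of the 25, against 9.55%. The Oas1 pair is shown because 2 overlapping matches lie within 20 bases of the start, the Tgtp pair because it holds a match that differs by 1 letter, and Rsad2 because its match reads on the opposite strand.
Oas1a, chr5:120907526-120907560 (minus strand): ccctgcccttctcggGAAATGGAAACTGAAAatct
Oas1g, chr5:120887614-120887646 (minus strand): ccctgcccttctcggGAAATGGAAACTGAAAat
Tgtp1, chr11:48992299-48992338 (minus strand): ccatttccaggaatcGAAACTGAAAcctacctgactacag
Tgtp2, chr11:49064258-49064297 (minus strand): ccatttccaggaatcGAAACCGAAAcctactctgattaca
Rsad2, chr12:26456548-26456587 (minus strand): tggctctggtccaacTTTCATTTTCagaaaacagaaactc

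Members with the ISRE letters went both ways. In CD8 Flica-negative cells against controls, 7 of these 16 were higher and 6 lower (37.6% and 29.1% of all listed genes), and in Flica-positive against Flica-negative cells 9 were higher and 2 lower (21.1% and 2.72%). Of the 9 members whose window lacked the letters, 3 were higher and 3 lower in the former comparison, and 7 were higher and none lower in the latter. In Flica-positive cells against CD8 controls, 10 of the 16 with the letters were higher and 6 lower (46.8% and 23.9% of all listed genes). Of the 9 without them, 7 were higher and 1 lower. In CD4 Flica-negative cells against CD4 controls, 7 of the 16 were higher and 6 lower (31.6% and 26.8%), and of the 9, 3 were higher and 2 lower.

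Rsad2, the antiviral enzyme viperin, counted 107, 81.5 and 99.1 in CD8 controls, 77.8, 68.1 and 48.3 in Flica-negative and 266, 194 and 407 in Flica-positive cells. Every Flica-positive library lay above the other CD8 libraries, with a log2 fold change of 2.16 (SE 0.43, edgeR adjusted p = 0.00238) over Flica-negative cells. Its excess over controls (log2 fold change 1.59, SE 0.45, edgeR adjusted p = 0.0136) became -0.12 with TMM scaling. Ifi30, a lysosomal thiol reductase of antigen processing, was at 343, 327 and 296 in controls, 375, 589 and 507 in Flica-negative and 1312, 1889 and 1663 in Flica-positive cells (log2 fold change 1.73, SE 0.25, edgeR adjusted p = 0.000218 between the fractions). Ifi44 was scarce, with 6.39, 0 and 2.59 in Flica-negative and 52.8, 82.4 and 43.1 in Flica-positive libraries (log2 fold change 4.28, SE 1.18, edgeR adjusted p = 0.0191), a call lost without Flica-negative replicate 2 or 3 or Flica-positive replicate 2 (adjusted p between 0.0521 and 0.0723).

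Usp18, which removes Isg15 from proteins and dampens the type I interferon receptor, was below its control level in both fractions. It was at 403, 439 and 187 in CD8 controls, 88.4, 58.8 and 52.6 in Flica-negative and 174, 78.9 and 164 in Flica-positive cells, lower than controls in Flica-negative cells (log2 fold change -2.36, SE 0.42, edgeR adjusted p = 0.000595). Flica-positive cells had the higher mean of the sorted fractions, which overlapped and were not called apart (log2 fold change 1.06, SE 0.51, edgeR adjusted p = 0.155). In Flica-positive cells against controls it was called lower (log2 fold change -1.30, SE 0.49, edgeR adjusted p = 0.0411), a call lost without Flica-positive replicate 1 or 2 or control replicate 1 or 2 (adjusted p between 0.0543 and 0.132).

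Ifit1bl1, of the Ifit family of RNA-binding proteins, was one of the 2 members that were lower in the Flica-positive fraction. It counted 1257, 1106 and 911 in CD8 controls, 443, 318 and 181 in Flica-negative and 149, 106 and 49.0 in Flica-positive cells. The fall from controls to Flica-negative cells (log2 fold change -1.80, SE 0.32, edgeR adjusted p = 0.000656) kept its call when any 1 library was left out, while that between the fractions (log2 fold change -1.63, SE 0.48, edgeR adjusted p = 0.0262) lost it without Flica-negative replicate 1 or 2 or Flica-positive replicate 2 or 3 (adjusted p between 0.0554 and 0.126). Mx1, a dynamin-like antiviral GTPase, was at 287, 187 and 241 in controls, 527, 421 and 482 in Flica-negative and 479.5, 275 and 506 in Flica-positive cells, and of the 3 pairs only Flica-negative against control cells was called (log2 fold change 1.00, SE 0.28, edgeR adjusted p = 0.00867), with the call lost under TMM scaling (adjusted p = 0.216). Flica-positive against control cells missed the threshold (log2 fold change 0.82, SE 0.37, edgeR adjusted p = 0.0708) but was called with DESeq2 (adjusted p = 0.0464), in one fit of all 5 groups (adjusted p = 0.0381) and without Flica-positive replicate 2 (adjusted p = 0.0429). Mx2 was scarce, between 0 and 106 in the 9 CD8 libraries. Its lower level in Flica-negative cells (log2 fold change -1.47, SE 0.60, edgeR adjusted p = 0.0497) lost its call without replicate 1 or 2 of either group (adjusted p between 0.0515 and 0.222). That in Flica-positive cells (log2 fold change -3.18, SE 1.22, edgeR adjusted p = 0.0431) lost it without any 1 control library or Flica-positive replicate 1 or 2 (adjusted p between 0.0572 and 0.155).

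The Trim30 genes encode ubiquitin ligases of the tripartite motif class, and the 2 listed ones differed. Trim30b was at 75.8, 72.5 and 114 in CD8 controls, 22.4, 23.3 and 12.1 in Flica-negative and 175, 327 and 283 in Flica-positive cells, with 3 groups that did not overlap (log2 fold change -2.18, SE 0.53, edgeR adjusted p = 0.00421 and log2 fold change 3.76, SE 0.50, edgeR adjusted p = 0.000111). Its excess over controls in Flica-positive cells (log2 fold change 1.58, SE 0.47, edgeR adjusted p = 0.0164) became -0.10 with TMM scaling and lost its call without Flica-positive replicate 2 or control replicate 1 or 2 (adjusted p between 0.0501 and 0.0623). Trim30c was at 144, 126 and 80.8 in CD8 controls and fell to 7.46, 1.87 and 3.45 in Flica-negative (log2 fold change -4.77, SE 0.65, edgeR adjusted p = 9.09e-05) and 8.21, 11.8 and 15.5 in Flica-positive cells.

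CD4 cells were sequenced without a Flica-positive group, so their members could be followed only from control to Flica-negative cells. Of the members called in both responses, 12 were higher and 10 lower in CD4 and in CD8 cells, and none went opposite ways. Over all listed genes the same held for all but 0.873% of the 2177 called in both, so agreement was the rule among listed genes. Ifitm1 counted 0, 12.6 and 0 in CD4 controls and 6831, 9729 and 5494 in CD4 Flica-negative cells (log2 fold change 10.72, SE 0.65, edgeR adjusted p = 4.23e-08). Ifi213 went from 3337, 3472 and 3481 to 541, 681 and 410.0 (log2 fold change -2.66, SE 0.21, edgeR adjusted p = 3.37e-07), and Oasl1 from 172, 175 and 149 to 20.3, 8.93 and 39.2 (log2 fold change -2.83, SE 0.52, edgeR adjusted p = 0.000475). Gbp2b rose from 14.5, 14.5 and 3.56 to 209, 241 and 82.5 (log2 fold change 4.03, SE 0.62, edgeR adjusted p = 0.000114). Gbp9 was lower on day 7 (log2 fold change -0.47, SE 0.16, edgeR adjusted p = 0.0257), a call lost without Flica-negative replicate 1 or 2 or control replicate 1 (adjusted p between 0.0555 and 0.0881).

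A direct test of the difference between the 2 responses, the interaction term of a fit of these 4 groups, called 6 members with a higher CD4 response and none with a lower one, where 5.65% and 4.60% of listed genes were called (10.2% in either direction). In Ifi204 the CD4 libraries went from 4.47, 8.70 and 5.34 to 853, 965 and 745 and the CD8 libraries from 5.29, 5.37 and 26.0 to 60.7, 103 and 77.7. The control libraries of both lineages overlapped, while every CD4 Flica-negative library exceeded every CD8 Flica-negative and Flica-positive one, the last at 439.6, 453 and 616. The responses differed by 4.35 on the log2 scale (SE 0.72, edgeR adjusted p = 0.000578). Gbp11 rose from 61.4, 65.8 and 66.7 to 268, 411 and 151 in CD4 cells and counted 53.7, 37.6 and 42.3 and 28.8, 14.9 and 26.8 in CD8 cells, a difference of 3.02 (SE 0.64, edgeR adjusted p = 0.00449) that its listing through CD4 cells alone favours. The other 4 were Gbp9 and the immunity-related GTPases Iigp1, Tgtp1 and Tgtp2, with differences of 1.21 to 1.50. Gbp9, Tgtp1 and Tgtp2 fell in both lineages and fell less in CD4 cells, with log2 fold changes of -0.47, -0.88 and -0.75 against -1.68, -2.37 and -2.21 in CD8 cells. Each of these genes was listed only against CD8 controls, which favours a larger fall in CD8 cells. Iigp1 was at 432, 501 and 339.8 in CD4 controls and 482, 638 and 568 in CD4 Flica-negative cells (log2 fold change 0.41, SE 0.23, edgeR adjusted p = 0.147). Its interaction (log2 fold change 1.45, SE 0.43, edgeR adjusted p = 0.038) lost its call with TMM scaling (adjusted p = 0.0963) and when 1 of 7 libraries was left out, namely CD4 control replicate 1 or 3, CD8 control replicate 3, CD4 Flica-negative replicate 2 or 3, or CD8 Flica-negative replicate 1 or 2 (adjusted p between 0.0551 and 0.0943).

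**Figure D5:**
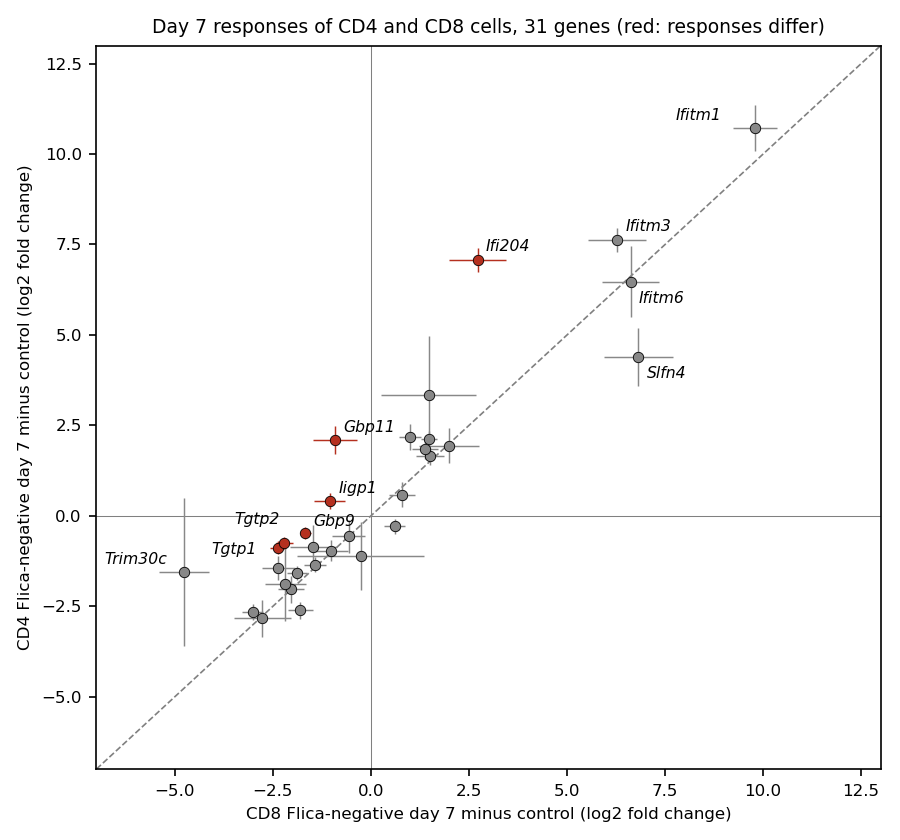
Log2 fold changes from control to Flica-negative day 7 in CD8 (horizontal) and CD4 cells (vertical) for 31 genes, with their standard errors (bars) and the line of equal response (dashed). The 6 genes in red, whose responses differed by the interaction test, all lie above the line. Gbp2b and Ifitm2, with no count in CD8 controls, are left out.

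Between CD4 and CD8 Flica-negative cells on day 7, 10 members were higher in CD4 cells and 1 lower, where 9.99% and 12.7% of listed genes were called (22.7% in either direction). Libraries of 15 members did not overlap, as for 37.7% of listed genes. Ifitm1 was higher in CD4 (6831, 9729 and 5494) than in CD8 cells (2783, 3832 and 2520.0), with no overlap (log2 fold change 1.27, SE 0.19, edgeR adjusted p = 7.56e-05), as were Ifitm2 (log2 fold change 1.93, SE 0.22, edgeR adjusted p = 3.54e-06) and Ifitm3 (log2 fold change 1.94, SE 0.18, edgeR adjusted p = 1.57e-07). Gbp11, listed through CD4 cells alone (log2 fold change 3.55, SE 0.43, edgeR adjusted p = 5.32e-06), Gbp2b (log2 fold change 2.91, SE 0.57, edgeR adjusted p = 0.000973) and Gbp9 (log2 fold change 0.68, SE 0.17, edgeR adjusted p = 0.00517) were also higher, as were Ifi204 (log2 fold change 3.41, SE 0.27, edgeR adjusted p = 2.82e-08) and Iigp1 (log2 fold change 2.58, SE 0.30, edgeR adjusted p = 4.21e-06). Iigp1 was listed only for rises over CD8 Flica-negative cells and CD8 controls, which favours a higher level in CD4 cells here. Tgtp1 and Tgtp2 were listed only for falls in CD8 Flica-negative cells, which favours the same. The calls of Tgtp1 and Tgtp2, with log2 fold changes of 0.70 and 0.59, were lost when any 1 of 4 libraries was left out, namely CD4 replicate 1 or 2 or CD8 replicate 2 or 3 (adjusted p between 0.0695 and 0.205). Ifit1bl1 was the member called lower in CD4 cells (log2 fold change -1.22, SE 0.33, edgeR adjusted p = 0.0104), a call lost without CD4 replicate 2 (adjusted p = 0.0593) or CD8 replicate 1 (adjusted p = 0.0648). Slfn4 and Ifitm6 had lower means in CD4 cells, as did the neutrophil marker sum (2549 to 7574 against 11750 to 18080), and missed the threshold (log2 fold change -0.91, SE 0.33, edgeR adjusted p = 0.0568 and log2 fold change -0.94, SE 0.39, edgeR adjusted p = 0.0936). Without CD4 replicate 3 or CD8 replicate 1 both were called (adjusted p between 0.0155 and 0.0437). Mx1 was called lower (adjusted p = 0.02) and Oas2 higher (adjusted p = 0.0397) without CD4 replicate 3. With all 6 libraries and no replicate block, no Oas member was called.

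In control cells the same number of members differed, with more of them lower in CD4 cells. On day 0, 3 members were higher and 8 lower in CD4 than in CD8 cells, where 7.01% and 5.81% of listed genes were called (12.8% in either direction). Libraries of 16 members did not overlap, as for 27.2% of listed genes. Mx1 was at 86.0, 53.2 and 61.4 in CD4 and 287, 187 and 241 in CD8 controls (log2 fold change -1.84, SE 0.33, edgeR adjusted p = 5.07e-05), Gbp3 at 223, 214 and 249.9 and 409, 424 and 426 (log2 fold change -0.87, SE 0.22, edgeR adjusted p = 0.0045), and Trim30c at 17.9, 1.93 and 0 and 144, 126 and 80.8 (log2 fold change -4.20, SE 0.71, edgeR adjusted p = 2.37e-05). Oas2, at 700.1, 601 and 651 against 369, 341 and 288 (log2 fold change 0.97, SE 0.20, edgeR adjusted p = 0.000429), and Iigp1 (log2 fold change 1.13, SE 0.24, edgeR adjusted p = 0.000619) were higher in CD4 controls. Tgtp1 (log2 fold change -0.80, SE 0.15, edgeR adjusted p = 0.00012) and Tgtp2 (log2 fold change -0.86, SE 0.15, edgeR adjusted p = 2.98e-05) were lower there. Trim30c, Tgtp1, Tgtp2, Gbp9 and Ifi214 were listed only for falls from CD8 controls, which favours a lower level in CD4 controls. Gbp3 and Mx1 were listed only for a rise from CD4 controls, which favours the same. Ifi30 was listed only for a rise from CD8 controls, which favours a higher level in CD4 controls. Iigp1, listed only for rises of CD8 Flica-positive cells over CD8 controls and CD8 Flica-negative cells, is favoured in the same way. Leaving out 1 library ended the call of Ifi30 in every case (adjusted p between 0.0685 and 0.169). It ended that of Gbp9 without replicate 2 of either group, that of Ifi214 without CD4 replicate 2 or CD8 replicate 1 or 2, and that of Ifi213 without CD4 replicate 1 or 2 or CD8 replicate 2 or 3 (adjusted p between 0.0638 and 0.195).

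Of 113 further genes of the interferon pathway, 25 were listed. Interferon-gamma (Ifng), the only 1 of 11 interferon genes listed, went from 76.3 ± 12 in CD8 controls to 4769 ± 426 in Flica-negative cells, with 3125 ± 388 in Flica-positive cells (SD, n = 3). It rose on day 7 in Flica-negative CD8 cells (log2 fold change 5.96, SE 0.22, edgeR adjusted p = 1.31e-08) and CD4 cells (log2 fold change 5.96, SE 0.32, edgeR adjusted p = 1.72e-08) and was lower in the Flica-positive CD8 fraction than in the Flica-negative one (log2 fold change -0.61, SE 0.20, edgeR adjusted p = 0.042). Of its receptor chains, Ifngr1 rose in CD8 Flica-negative cells (log2 fold change 1.87, SE 0.14, edgeR adjusted p = 1.22e-06), and Ifngr2 fell from 629.5 ± 145 to 33.0 ± 17.7 and was 261 ± 138 in Flica-positive cells (log2 fold change 2.98, SE 0.59, edgeR adjusted p = 0.00238 between the fractions). Ifnlr1, the specific chain of the interferon-lambda receptor, was at 7.01 ± 3.60 in Flica-negative cells, against 149 ± 73.2 in Flica-positive cells (log2 fold change 4.37, SE 0.72, edgeR adjusted p = 0.000565). Its mean in CD8 controls was 0.587, and the step from there to Flica-negative cells was not called (edgeR adjusted p = 0.0822). Over the CD8 groups its means rose in the order of the neutrophil marker sum. In CD4 cells that sum rose on day 7, while Ifnlr1 had means of 1.66 in controls and 0.534 in Flica-negative cells. The part of neutrophil RNA in its levels was not tested.

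Over the whole pathway list, 10 of the 25 were higher and 2 lower in the Flica-positive fraction of CD8 cells, where 21.1% and 2.72% of all listed genes were called. In CD8 Flica-negative cells against controls 12 were higher and 9 lower, where 37.6% and 29.1% were. Ciita, the switch of MHC class II transcription, fell from 531 ± 138 in CD8 controls to 38.3 ± 12.9 in Flica-negative cells (log2 fold change -3.78, SE 0.38, edgeR adjusted p = 1.12e-05) and was 274 ± 61.9 in Flica-positive cells (log2 fold change 2.83, SE 0.45, edgeR adjusted p = 0.000451). B cells express it too, and their marker sum was 5758 to 8821 in CD8 controls, 139 to 197 in Flica-negative and 353 to 638 in Flica-positive cells, a part that was not tested. Tlr7, a sensor of single-stranded RNA that B cells express too, fell from 221 ± 2.32 to 24.9 ± 17.3 and was 201 ± 101 in Flica-positive cells (log2 fold change 3.00, SE 0.62, edgeR adjusted p = 0.00326). Ddx60 (log2 fold change 1.65, SE 0.33, edgeR adjusted p = 0.00277) and the serine protease inhibitor Serpina3f (log2 fold change 1.61, SE 0.28, edgeR adjusted p = 0.000863) were higher in Flica-positive cells too. The transcription factors Irf4 (log2 fold change 2.61, SE 0.18, edgeR adjusted p = 6.79e-07) and Irf8 (log2 fold change 1.82, SE 0.20, edgeR adjusted p = 2.24e-05) rose from control to Flica-negative CD8 cells, as did the surface protein Ly6a (log2 fold change 5.28, SE 0.43, edgeR adjusted p = 2.37e-06), while the kinase Ikbke fell (log2 fold change -2.27, SE 0.15, edgeR adjusted p = 6.56e-07). Irf8 had the smaller response in CD4 cells, with an interaction of -1.22 (SE 0.28, edgeR adjusted p = 0.00758).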

How the data were processed

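RNA of 15 libraries (5 groups of 3, grouped by the GEO titles) was analysed. Per the submitters' processing notes, reads were aligned with STAR 2.7.1a to GRCm38 and analysed with DESeq2; the counting tool and annotation are not given in the sources used here. The authors deposited 4 tables of raw counts per gene and library, with a baseMean signal (the mean of counts divided by DESeq2 size factors) that served here only to recover those factors (relative error at most 5.3e-15). Columns with the authors' log2 fold changes, standard errors, Wald statistics and p-values were not used. Replicates are labelled biological, and p-values measure only the spread between these libraries.

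Groups were compared with edgeR 4.0.16 (quasi-likelihood F test, R 4.3.3) on the counts with the authors' size factors, on the groups compared, with Benjamini-Hochberg adjustment over all listed genes with a count. The 7 comparisons were 6 pairs and the CD4 against CD8 interaction. SE is the absolute log2 fold change divided by the square root of F. Alternatives were TMM over the listed genes, the DESeq2 1.42.0 Wald test, a mean of at least 10 normalized counts, one fit of all 5 groups, the replicate number as a block, and leaving out each library. The scripts were tested on simulated data. Library totals over all genes were not used here, so depth is unknown, and few counts limit precision. A fold against a group at 0 was set against 3 counts per library.

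Members and gene lists were chosen with earlier results of these data known. Genes named with values were the most abundant members of each family (3 in families of 6 or more, otherwise 2), the 3 largest called rises and falls per comparison among genes with a mean of at least 20, Ifi204, and up to 6 called pathway genes per comparison by adjusted p. Ifi205, Ifi207, Ifi211, Oas1a, Oas1g and Rsad2, and some values of other members, were added after their values were seen. Sequences are RefSeq, GRCm38.p6.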

Additional observations from a re-analysis of the deposited data

Results flagged for a closer look

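In 6 genes the response from control to Flica-negative day 7 cells differed between CD4 and CD8 cells by the interaction test (edgeR, Benjamini-Hochberg adjusted), each time with the higher log2 fold change in CD4 cells. The difference on the log2 scale was 4.35 for Ifi204, 3.02 for Gbp11, 1.50 for Tgtp1, 1.46 for Tgtp2, 1.45 for Iigp1 and 1.21 for Gbp9. Tgtp1 and Tgtp2 share transcript windows, so reads may have been split between them, and they were taken as 1 observation at most. Gbp11 was listed only for the CD4 response and Tgtp1 and Tgtp2 only for the CD8 response, which favours a difference in these 3. Gbp9 was listed only for CD8 Flica-positive cells against CD8 controls, a group that this test uses, which favours a difference too. Iigp1 was listed only for CD8 Flica-positive cells against CD8 controls and CD8 Flica-negative cells, groups that this test also uses. Gbp9, Tgtp1 and Tgtp2 fell in both lineages, and less in CD4 cells. For Gbp11 the call was lost in one fit of all 5 groups (adjusted p = 0.0956).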

How the results depend on the processing

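TMM scaling reversed 5 genes in Flica-positive cells against CD8 controls: Rsad2 to -0.12, Gbp3 to -0.030, Oas2 to -0.64, Oasl1 to -1.54 and Trim30b to -0.10 (log2). In that comparison 70.8% of listed genes were called, so TMM over the listed genes cannot decide which scaling is right. In CD4 against CD8 control cells 11 members were called, but 6 in one fit of all 5 groups and 7 to 11 when 1 library was left out, with 7 without replicate 2 of either group. The counts of called members otherwise ranged, over libraries left out, from 16 to 21 in Flica-positive against Flica-negative cells, 27 to 29 and 23 to 27 in these against controls, 23 to 25 in CD4 cells, 8 to 15 in CD4 against CD8 Flica-negative cells and 5 to 7 for the interaction. Same-numbered Flica-positive and Flica-negative libraries had correlations of deviations of 0.108, 0.0323 and 0.0606, and the main tests did not pair them. In that comparison, in the Flica-negative groups of both lineages and in the controls every library correlated best with its own number, a hint of pairing. Erythroid marker sums also fell from replicate 1 to 3 in every day 7 group. They were 111200, 7243 and 1739 (CD8 Flica-positive), 3616, 561 and 295 (CD8 Flica-negative) and 1961, 718 and 369 (CD4 Flica-negative). The paper sorted pooled splenocytes into these groups, so same-numbered libraries may share a pool, which is not stated. With the replicate block 23, 24, 23, 24, 16, 12 and 6 members were called in the 7 comparisons, in the order of the report's overview followed by CD4 against CD8 Flica-negative cells, controls and the interaction. In CD4 against CD8 Flica-negative cells the block turned 10 higher and 1 lower into 12 and 4, adding Oas1a, Usp18, Slfn4, Mx1 and Ifitm6. In all, 1336 values kept their side of the threshold and direction, and 5 were reversed (the genes named above with TMM scaling). Apart from these, 115 lost a call and 43 gained one. The calls of Ifitm1 between CD4 and CD8 Flica-negative cells (adjusted p = 0.0759) and of Oas2 (adjusted p = 0.136) and Trim30c (adjusted p = 0.0617) between controls were lost in one fit of all 5 groups; the cause was not tested.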
